A study of Homo sapiens with 2 samples.

Results

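The genes described here are 10 chromatin regulators with long transcripts, namely the histone methyltransferases KMT2A, KMT2B, KMT2C, KMT2D, SETD1A and SETD1B, the chromatin remodelling subunits ARID1A and ARID1B, and the histone acetyltransferases CREBBP and EP300. They were picked by gene symbol, and each symbol matched 1 row of the 61541 genes in the deposited table. RNA-seq was performed in Huh7, a cultured human hepatoma line, after transfection of a negative control siRNA (Huh7-NC, labelled control) or of siRNA against BRF2 (Huh7-si, labelled si-BRF2). BRF2 is a subunit of the TFIIIB-like factor that brings RNA polymerase III to promoters such as that of the U6 snRNA. Each condition had 1 library, made from total RNA of the same line, so no difference below has a replicate check, and every interval covers counting error alone. The time between transfection and RNA harvest, and which of the siRNAs against BRF2 was sequenced, are not given in the sources used here.

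KMT2 and SETD1 enzymes attach methyl groups to lysine 4 of histone H3, the mark of promoters and enhancers, and each works inside a COMPASS-type complex built on WDR5, RBBP5, ASH2L and DPY30. KMT2A and KMT2B bind menin and act at CpG-rich promoters, KMT2C and KMT2D act mainly at enhancers, and SETD1A and SETD1B supply much of the promoter trimethylation. ARID1A and ARID1B are alternative DNA-binding subunits of the BAF (SWI/SNF) remodeller, which slides and evicts nucleosomes. CREBBP (CBP) and EP300 (p300) are paralogous co-activators that acetylate histones and transcription factors. ARID1A, ARID1B, KMT2C and KMT2D are among the chromatin genes that are recurrently mutated in liver cancer.

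In GENCODE release 29, on GRCh38, KMT2A (ENSG00000118058) lies at chr11:118436464-118526832 on the plus strand and KMT2B (ENSG00000272333) at chr19:35718019-35738878 on the plus strand. KMT2C (ENSG00000055609) lies at chr7:152134922-152436005 on the minus strand and KMT2D (ENSG00000167548) at chr12:49018975-49059774 on the minus strand. SETD1A (ENSG00000099381) lies at chr16:30957294-30984664 and SETD1B (ENSG00000139718) at chr12:121804180-121832584, both on the plus strand. ARID1A (ENSG00000117713) lies at chr1:26693236-26782110 and ARID1B (ENSG00000049618) at chr6:156776020-157210779, both on the plus strand. CREBBP (ENSG00000005339) lies at chr16:3725054-3880726 on the minus strand and EP300 (ENSG00000100393) at chr22:41091786-41180079 on the plus strand.

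Promoters of the 4 KMT2 genes are shown because KMT2A and KMT2C had the 2 highest fold changes of the group in reads (though not by TPM or relative to genes of like length, where EP300 came before KMT2C), and all 4 can be compared as paralogs. The sequences come from RefSeq (GRCh38.p14), run 5′ to 3′ in the sense of the gene, end before the annotated gene, and carry each CpG dinucleotide in capitals. KMT2A spans chr11:118436242-118436463 (plus), KMT2B chr19:35717753-35718002 (plus), KMT2C chr7:152436006-152436253 (minus) and KMT2D chr12:49060795-49061044 (minus).
KMT2A: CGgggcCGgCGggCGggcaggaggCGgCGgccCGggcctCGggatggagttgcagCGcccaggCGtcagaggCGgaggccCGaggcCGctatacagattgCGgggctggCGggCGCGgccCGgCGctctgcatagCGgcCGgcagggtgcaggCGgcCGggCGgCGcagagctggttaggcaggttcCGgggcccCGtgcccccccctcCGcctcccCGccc
KMT2B: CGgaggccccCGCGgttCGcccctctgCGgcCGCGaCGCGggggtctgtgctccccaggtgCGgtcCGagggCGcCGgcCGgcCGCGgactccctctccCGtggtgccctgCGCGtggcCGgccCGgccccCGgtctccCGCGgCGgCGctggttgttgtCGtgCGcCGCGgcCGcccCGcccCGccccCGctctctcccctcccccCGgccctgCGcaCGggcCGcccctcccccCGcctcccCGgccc
KMT2C: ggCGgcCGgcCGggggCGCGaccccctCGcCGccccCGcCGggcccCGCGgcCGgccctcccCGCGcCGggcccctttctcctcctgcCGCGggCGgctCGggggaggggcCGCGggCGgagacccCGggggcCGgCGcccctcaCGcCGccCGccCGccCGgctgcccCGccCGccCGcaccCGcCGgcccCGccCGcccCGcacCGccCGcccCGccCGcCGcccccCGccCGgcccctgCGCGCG
KMT2D: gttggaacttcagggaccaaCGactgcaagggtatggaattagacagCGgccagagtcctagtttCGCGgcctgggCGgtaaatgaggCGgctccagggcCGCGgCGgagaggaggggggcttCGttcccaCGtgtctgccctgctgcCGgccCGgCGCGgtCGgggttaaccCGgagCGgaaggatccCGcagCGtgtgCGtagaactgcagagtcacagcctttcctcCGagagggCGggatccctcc
These stretches hold 29 CpG in 222 bases of KMT2A, 40 in 250 of KMT2B, 48 in 248 of KMT2C and 23 in 250 of KMT2D. RefSeq promoters were matched for 9 of the 10 genes, in 11 windows of 250 bases before a start site. Of these windows, 10 were above the median GC content of all 35116 promoters (58.0%) and 10 above their median CpG count (11). The GC box GGGCGG, searched on both strands, was in 9 of the 11 windows and in 42.6% of all promoters. TATAAA was in 0 of the 11 windows and in 10.7% of all promoters, and CCAAT was in 1 of the 11 and in 32.0%. A match is a description of the letters, and binding was not measured.

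The libraries summed to 22852648 (Huh7-NC) and 22089016 (Huh7-si) estimated reads. BRF2 was listed with 1280.52 reads, or 56.0 CPM (reads scaled to the library total), for the control and with 363.72 reads, or 16.5 CPM, for Huh7-si, so its level was 70.6% lower in the library that the label names si-BRF2. The 10 hepatocyte and hepatoma markers checked (ALB, AFP, TTR, APOA1 and others) were all present, with a summed level of 15310 and 16570 TPM (scaled to transcript length and library total). The 5 endothelial markers summed to 0.96 and 1.60 TPM, with 4 of 5 at or under 3 reads in both libraries. Fibroblast and stellate markers summed to 16.0 and 33.5 TPM with DCN at 0. The 5 leukocyte markers summed to 447 and 444 TPM, nearly all of it LYZ, with CD3E at 0. Mitochondrial transcripts took 3.83% of reads in the control and 5.29% in Huh7-si. In a bulk sample, fewer cells that make an mRNA and less mRNA per cell cannot be told apart.

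All 10 genes had a higher CPM in Huh7-si than in Huh7-NC. Their summed level was 647 CPM in the control and 1175 CPM in Huh7-si, a ratio of 1.82. The median log2 fold change (Huh7-si over Huh7-NC, from CPM) was 0.93, beside 0.21 over the 17921 genes with at least 10 reads in both libraries together. A gene was called when its fold change was at least 2 and an unadjusted, two-sided exact binomial test on the reads of both libraries gave p under 0.05, a test that compares the libraries and not the conditions. By this call KMT2A, KMT2C and EP300 were higher, 0 were lower and 7 did not reach the fold threshold. Among all genes tested, 2326 (13.0%) were called higher and 212 (1.18%) lower. Of the genes nearest in length, described below, 33.5% were called higher for KMT2A, 36.8% for KMT2C and 10.5% for EP300. The 95% interval of the fold change lay above 1 for all 10. TMM scaling shifted every log2 fold change by -0.22, which left the 10 genes above 0 and took EP300 (0.86) under the threshold. When a biological coefficient of variation of 0.4 was assumed, the exact test of edgeR called 0 of the 10. It called few genes in all, 562 higher and 53 lower among those with at least 10 reads.

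**Figure D1:**
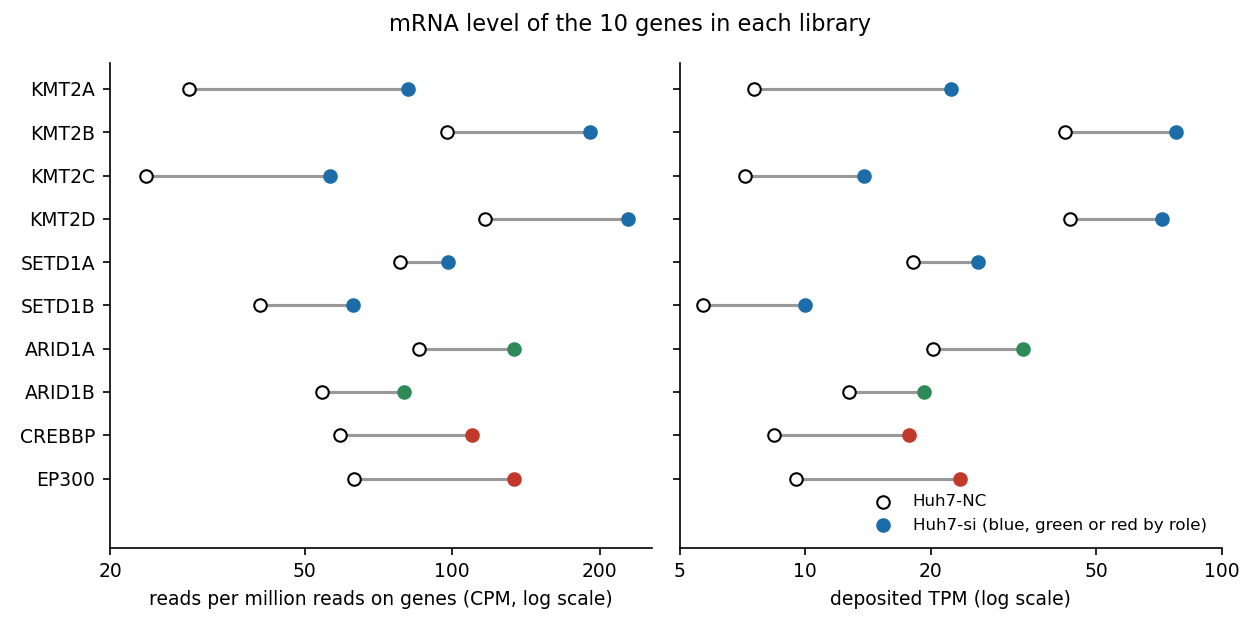
Level of each gene in Huh7-NC (open circles) and Huh7-si (filled circles), as CPM on the left and as deposited TPM on the right, both on log axes, with 1 library per condition. Every filled circle lies to the right of its open circle, by the widest distance for KMT2A (28.97 to 81.3 CPM) and the narrowest for SETD1A (78.4 to 98.0 CPM).

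KMT2A (MLL1), the enzyme that maintains HOX gene expression and is rearranged in acute leukaemia, had the highest fold change of the 10. It had 662 reads in Huh7-NC, against 1795.21 in Huh7-si, or 7.55 and 22.34 TPM. KMT2A thus rose 2.81-fold (log2 fold change 1.49, 95% interval 1.36 to 1.62). Its closest paralog KMT2B (MLL2) was among the most abundant of the group per length, with 2226 reads in the control and 4222 in Huh7-si, or 42.16 and 77.77 TPM. The KMT2B ratio of 1.96 (log2 0.97, interval 0.90 to 1.05) fell just short of the threshold.

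KMT2C (MLL3), an enhancer monomethyltransferase, had the fewest reads of the 10, with 542.19 in Huh7-NC and 1243.72 in Huh7-si. In TPM its level was 7.19 and 13.84. KMT2C rose 2.37-fold in reads (log2 1.25, interval 1.10 to 1.40), while its TPM ratio of 1.92 lay under the threshold. KMT2C shares near-identical sequence with BAGE2 copies, and BAGE2 itself was listed with 36.93 and 91.01 reads, so its estimate is uncertain. KMT2D (MLL4), the paralog of KMT2C that also acts at enhancers, had the most reads, 2666.55 in the control against 5048.34 in Huh7-si, or 43.16 and 72.02 TPM. Its ratio was 1.96 (log2 0.97, interval 0.90 to 1.04), again just short of the threshold.

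SETD1A, the catalytic subunit of one SET1/COMPASS complex, had the smallest change of the group. It had 1791 reads in Huh7-NC, against 2164 in Huh7-si, or 18.14 and 25.97 TPM, a read ratio of 1.25 (log2 0.32, interval 0.23 to 0.41). SETD1B, the alternative catalytic subunit, had 926 and 1387 reads, or 5.70 and 10.01 TPM, with a read ratio of 1.55 (log2 0.63, interval 0.51 to 0.75). Over the 6 methyltransferases the log2 fold changes ran from 0.32 to 1.49 with a median of 0.97. In reads, the 4 KMT2 genes were above both SETD1 genes. By TPM, KMT2D (0.74) was below SETD1B (0.81), and it was also below SETD1B relative to genes of like length.

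ARID1A, the most often mutated BAF subunit in cancer, had 1950 reads in the control and 2954 in Huh7-si, or 20.27 and 33.41 TPM. Its ratio was 1.57 (log2 0.65, interval 0.57 to 0.73). ARID1B, which takes its place in a separate set of BAF complexes, had 1240 and 1761 reads, or 12.77 and 19.34 TPM. Its ratio was 1.47 (log2 0.56, interval 0.45 to 0.66). Neither ARID1 gene passed the fold threshold, and their intervals overlapped.

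EP300 had 1437 reads in Huh7-NC, against 2954.04 in Huh7-si, or 9.53 and 23.56 TPM. EP300 rose 2.13-fold (log2 1.09), with an interval of the fold from 2.00 to 2.27 that reached down to the threshold. CREBBP had 1348.29 and 2428.22 reads, or 8.43 and 17.78 TPM. Its ratio was 1.86 in reads (log2 0.90, interval 0.801 to 0.995) and past 2 in TPM (log2 1.08). Both acetyltransferase genes thus passed the fold threshold by TPM, and EP300 alone by reads. For CREBBP the log2 fold change in TPM was 0.18 above that in reads. Over genes with a symbol and at least 100 reads, the median of this difference was also 0.18. Over the group, 3 genes passed by either measure, with CREBBP in place of KMT2C by TPM.

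Per kilobase of the deposited gene length, the order of levels in Huh7-NC was SETD1A (13.1 CPM per kb), KMT2B (11.5), ARID1A (9.93), EP300 (7.16), SETD1B (6.87), KMT2D (5.64), CREBBP (5.47), ARID1B (5.26), KMT2A (2.11) and KMT2C (1.54). In Huh7-si it was KMT2B (22.5 CPM per kb), SETD1A (16.4), ARID1A (15.6), EP300 (15.2), KMT2D (11.0), SETD1B (10.6), CREBBP (10.2), ARID1B (7.73), KMT2A (5.93) and KMT2C (3.65). KMT2B was below SETD1A in Huh7-NC and above it in Huh7-si, in both libraries beyond counting error. KMT2D lay below SETD1B in Huh7-NC and did not differ from it beyond counting error in Huh7-si. KMT2A and KMT2C stayed at the bottom of the order in both. Of the 9 neighbouring pairs in Huh7-NC, 3 did not differ beyond counting error: EP300 and SETD1B, KMT2D and CREBBP, and CREBBP and ARID1B. In Huh7-si, 4 did not: SETD1A and ARID1A, ARID1A and EP300, KMT2D and SETD1B, and SETD1B and CREBBP. The order by TPM is different, and these crossings are not seen in it. By TPM, KMT2B was above SETD1A in both libraries (42.16 and 18.14 in Huh7-NC, 77.77 and 25.97 in Huh7-si). KMT2D was above SETD1B in both (43.16 and 5.70 in Huh7-NC, 72.02 and 10.01 in Huh7-si), and SETD1B was the lowest of the 10 in both.

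Change varied with gene length across the whole transcriptome, so each gene was set beside genes of like length. Over 12392 genes with a symbol and at least 100 reads, Spearman's rho of deposited length with log2 fold change was 0.53, across genes that are not independent replicates. The 10 genes have deposited lengths from 5901 (SETD1B) to 20686 (KMT2D) bases. The other 2024 genes in that range had a median log2 fold change of 0.54, and 89.2% of them were above 0. Of these 2024 genes, 318 (15.7%) were called higher and 0 (0%) lower. Direction alone therefore did not separate the 10 genes from others as long.

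**Figure D2:**
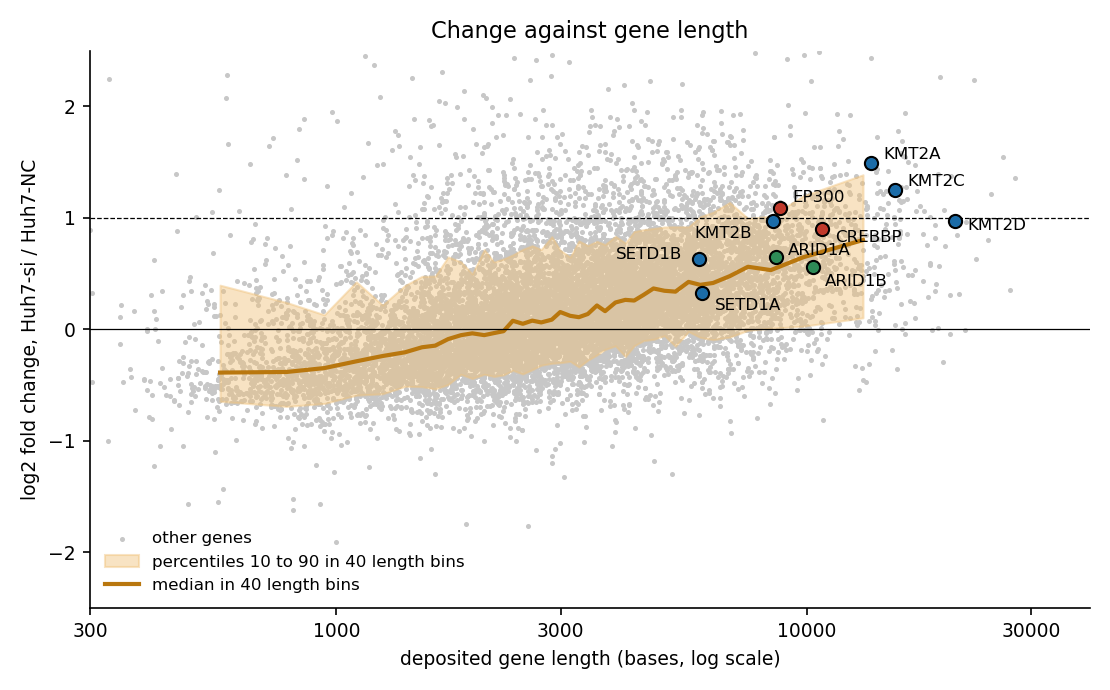
Log2 fold change from CPM against deposited gene length (log axis) for 12344 genes with a symbol and at least 100 reads (grey), with the median (line) and the percentiles 10 to 90 (band) of 40 length bins; 38 genes lie outside the axes, and the dashed line marks a fold change of 2. The named genes (blue methyltransferases, green ARID1 subunits, red acetyltransferases) all lie above 0, with KMT2A at 1.49 above the upper end of the band.

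For each gene, the nearest 200 genes in deposited length (100 shorter and 100 longer, where so many exist) gave the value to compare with. The lengths behind the TPM values, given below, differ from the deposited ones for several genes, KMT2D and SETD1B among them. A comparison by those lengths was not run. KMT2A exceeded the median of its 200 neighbours (0.81) by 0.68 on the log2 scale, and 93.0% of them lay below it. EP300 exceeded its neighbours' median (0.57) by 0.52, with 91.0% below. These were the 2 genes above the 90th percentile of genes of like length. KMT2B was 0.45 above a median of 0.52, with 86.0% of neighbours below it.

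KMT2C had 185 neighbours, of which 85 were longer. It was 0.44 above their median of 0.81, with 82.2% of them below. SETD1B was 0.24 above its median of 0.39, and CREBBP 0.20 above 0.70. KMT2D, at the far end of the length range, had 118 neighbours, of which only 18 were longer. It was 0.12 above their median of 0.85, and 57.6% of them lay below it. ARID1A was 0.10 above 0.55. SETD1A and ARID1B were the 2 genes below the median of their neighbours, SETD1A at -0.07 and ARID1B at -0.10. The median of the 10 differences was 0.22, beside 0.93 for their log2 fold changes as such. These differences moved with the measure for several genes. By TPM, KMT2C was 0.05 and KMT2B 0.23 above its neighbours, and KMT2D was at -0.13. Among genes of like length and like mean CPM, KMT2D was at 0.42.

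**Figure D3:**
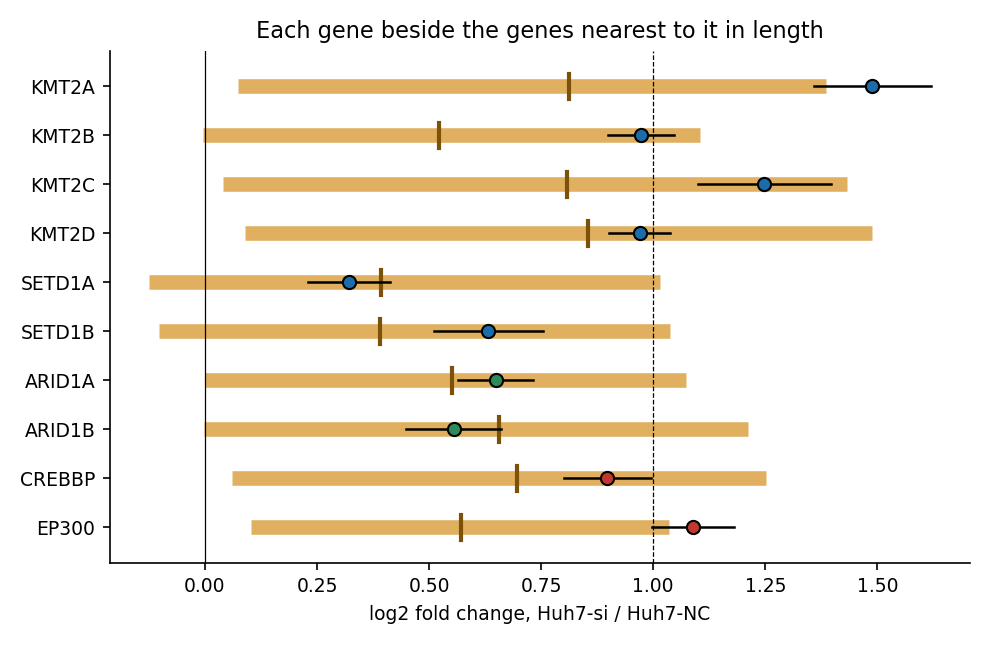
Log2 fold change of each gene (points, with 95% counting intervals) beside the genes nearest to it in length, whose percentiles 10 to 90 are the bars and whose medians are the vertical ticks; the dashed line marks a fold change of 2. KMT2A and EP300 lie past the end of their bars, and SETD1A and ARID1B lie left of their ticks.

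GC content differed as well, and its part in the values was not tested. Transcript GC ran from 45.03% (KMT2C) to 64.7% (SETD1B), and all 10 genes were above the median GC of their neighbours in length. Among the 10, Spearman's rho was 0.58 for length with log2 fold change and -0.60 for GC with log2 fold change, a description over 10 genes of the same libraries. Across 2022 genes of the same length range, rho between GC and log2 fold change was -0.03. With neighbours also held within 5 percentage points of GC, 8 of the 10 genes were above the median of their neighbours, and the median difference was 0.31.

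Within the 5 pairs of paralogs, log2 fold changes were compared directly. KMT2A changed more than KMT2B, by 0.52 on the log2 scale (95% interval 0.37 to 0.66), and its share of the pair's summed TPM went from 15.2% to 22.3%. KMT2C changed more than KMT2D by 0.28 (interval 0.12 to 0.44), with a share of 14.3% in Huh7-NC and 16.1% in Huh7-si. In both pairs the paralog with the lower TPM changed more. SETD1A, the more abundant of its pair, changed less than SETD1B, with a difference of -0.31 (interval -0.46 to -0.16) and a share of 76.1% and 72.2%.

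CREBBP changed less than EP300, with a difference of -0.19 (interval -0.32 to -0.06), and its share of the pair was 46.9% in Huh7-NC and 43.0% in Huh7-si. ARID1A and ARID1B differed by 0.09, with an interval from -0.04 to 0.23 that holds 0, and ARID1A made up 61.3% and 63.3% of the pair. The intervals of 4 of the 5 pairs thus excluded 0. Relative to genes of like length, the differences were 0.23 for KMT2A less KMT2B, 0.32 for KMT2C less KMT2D, -0.31 for SETD1A less SETD1B, 0.20 for ARID1A less ARID1B and -0.31 for CREBBP less EP300. KMT2A is the longer gene of its pair, and its difference was smaller on this scale than in reads as such. All 5 differences kept their sign in TPM, at 0.68, 0.21, -0.29, 0.12 and -0.23 in the order given by KMT2A, KMT2C, SETD1A, ARID1A and CREBBP.

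The TPM values carry a transcript length that can be read back from them, because a gene's reads divided by its TPM are in proportion to the length of the transcripts assigned. The scale was set on 39 genes with a single annotated transcript of the deposited length. Their quartiles lay at 94.2% and 106% of the median in Huh7-NC and at 95.5% and 106% in Huh7-si. On that scale KMT2D was counted as 3338 bases in Huh7-NC and 4451 in Huh7-si, or 16.1% and 21.5% of its deposited length. KMT2C was counted as 4075 and 5706 bases, or 26.4% and 37.0%.

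KMT2B was at 33.6% and 40.6% of its deposited length, and KMT2A at 34.6% and 37.2%. ARID1A was at 60.5% and 65.3%, and ARID1B at 50.9% and 56.1%. Thus 6 of the 10 genes were counted at under 70% of their deposited length in Huh7-NC, and each of these 6 was counted as longer in Huh7-si. CREBBP (80.1% and 80.4%), SETD1A (89.0% and 88.3%) and EP300 (92.8% and 90.7%) were near their deposited length in both libraries. SETD1B was counted at 149% in both. Over genes with a symbol and at least 100 reads, the log2 fold change in TPM was higher than that in reads by 0.18 at the median. For KMT2C, whose counted length grew the most, the TPM value (0.94) was the lower one, and less the read value (1.25) it gave -0.30. Reads of each transcript were not analysed here, and what sets these lengths was not tested.

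**Figure D4:**
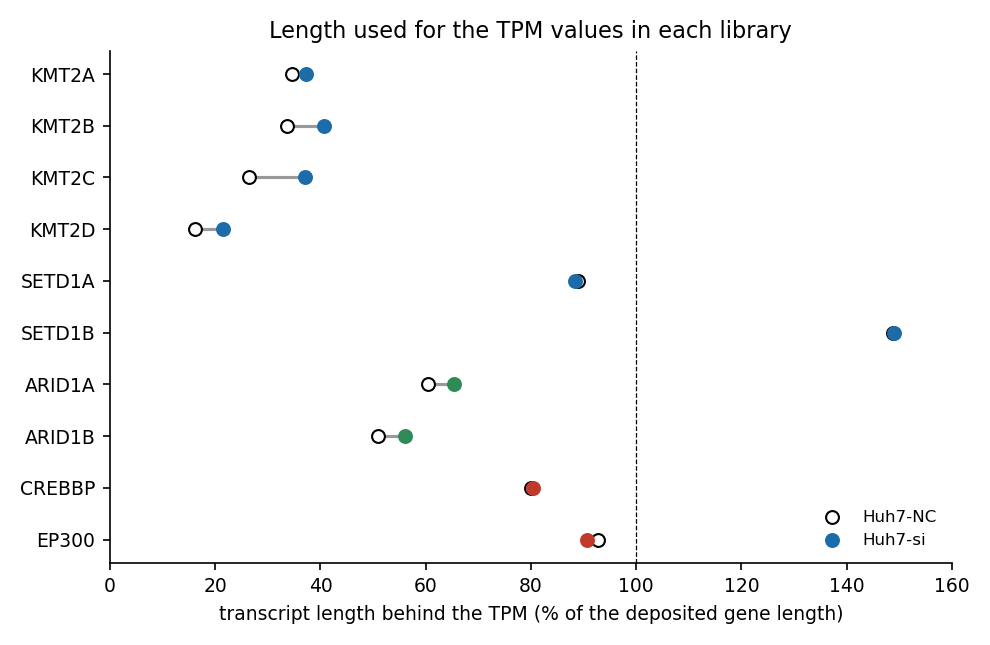
Transcript length behind the TPM of each gene as a percentage of its deposited length (dashed line at 100%), in Huh7-NC (open circles) and Huh7-si (filled circles). KMT2D, KMT2C, KMT2B and KMT2A lie between 16.1% and 40.6%, with KMT2C moving from 26.4% to 37.0%, and SETD1B lies at 149%.

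Overlapping genes took few of the reads. The annotated gene AP001267.5 shares 5599 exon bases with KMT2A on the same strand and had 11.38 and 6.82 reads. IGFLR1 shares 78 exon bases with KMT2B on the opposite strand, with 169.82 reads in the control and 95.71 in Huh7-si. DDN-AS1 shares 261 bases with KMT2D and had 30.92 and 37.32 reads. Genes on the opposite strand also share exon bases with KMT2A, KMT2C, SETD1A, ARID1A, ARID1B and EP300. Of these, AL355297.4 shares the most, 747 bases of ARID1B (1 and 2 reads), and AC135048.4, at SETD1A, had the most reads (14.49 and 46.68). Whether counting used strand is not given in the sources used here, so reads of opposite-strand genes cannot be told apart from those of the genes they overlap.

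Partners of the 10 enzymes were then counted in 7 lists of chromatin genes. Of 132 listed genes 129 had at least 10 reads, and 15 (11.6%) were called higher and 0 lower, beside 13.0% and 1.18% of all genes. Their median log2 fold change was 0.43, and 0.08 relative to genes of like length. The 53 listed genes at least as long as SETD1B had a median of 0.70, and 0.19 relative to genes of like length. Of these 53, 14 (26.4%) were called higher and 1 was below 0. Among the 2024 genes in the length range of the 10, 15.7% were called higher and the median was 0.54. The 76 shorter partners had a median of 0.15, 1 called higher and 30 below 0. Spearman's rho of length with log2 fold change over the 129 genes was 0.73, as a description.

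Of the 4 core subunits shared by COMPASS complexes, none passed the call in either direction. WDR5, which presents the histone tail to the enzyme, had 2323 reads in Huh7-NC, against 1840 in Huh7-si (log2 -0.29, interval -0.38 to -0.20), -0.43 relative to genes of like length. DPY30 had 747 and 574 reads (log2 -0.33), which was 0.07 relative to its equally short neighbours. RBBP5 was at 0.09 (interval -0.09 to 0.27) and ASH2L at -0.02 (interval -0.13 to 0.09), so neither differed beyond counting error. Of the 16 COMPASS partners, 1 was called higher, beside 13.0% of all genes. It was BOD1L1, a SETD1A-associated fork protection factor, at 1.17. KDM6A (UTX), the demethylase of the KMT2C and KMT2D complexes, was at 0.89 without passing the threshold, and PAGR1, of the same complexes, was lowest at -0.58. The list's median was 0.09, -0.02 relative to like length, and its sign turned to -0.13 with TMM scaling.

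Among 24 BAF, PBAF and ncBAF subunits tested, ARID2, a PBAF subunit (log2 1.08), and BICRA, an ncBAF subunit (1.24), were called higher. The share called higher among all genes was 13.0%. The ATPase genes SMARCA4 (8644.01 and 9871.07 reads, log2 0.24) and SMARCA2 (0.51) did not pass. SMARCB1, a core subunit of BAF and PBAF, had 6823 reads in the control and 4797.08 in Huh7-si (log2 -0.46). DPF1 was lowest at -0.97, from 89 and 44 reads. The median of the list was 0.26, and 0.12 relative to genes of like length.

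**Figure D5:**
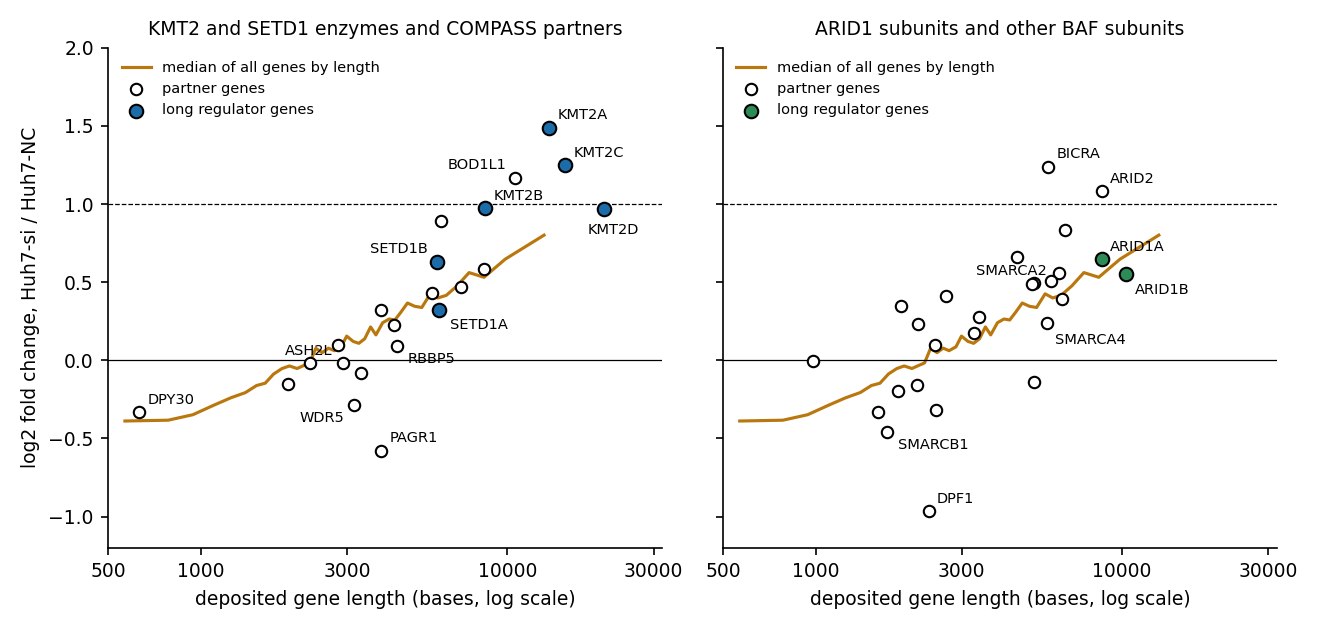
Log2 fold change against deposited gene length (log axis) for the KMT2 and SETD1 enzymes with 16 COMPASS partners (left) and for ARID1A and ARID1B with 24 other BAF subunits (right); open circles are partners, the line is the median of all genes by length, and the dashed line marks a fold change of 2. On the left, points run from PAGR1 at -0.58 to KMT2A at 1.49, and on the right from DPF1 at -0.97 to BICRA at 1.24, with WDR5, PAGR1, SMARCB1 and DPF1 under the line.

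Among all genes 13.0% were called higher, and 15.7% of those in the length range of the 10 regulators. Of 12 other histone acetyltransferases, 1 was called higher, TAF1, a TFIID subunit (log2 1.32, from 273 and 658.39 reads), and HAT1 was lowest at -0.21. The median of this list was 0.50. Among 23 other histone lysine methyltransferases (median 0.41), ASH1L, which methylates lysine 36 of histone H3, was called higher (1.07), and SMYD3 was lowest at -0.55. Of 19 lysine demethylases (median 0.45), JMJD1C (1.14) and KDM6B (1.14), an antagonist of Polycomb marks, were called higher, and KDM1A was lowest at -0.05.

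Of 16 histone deacetylases (median 0.18, or 0.08 relative to genes of like length), HDAC9 rose from 89 to 475 reads (log2 2.47, interval 2.14 to 2.81). HDAC11 was lowest at -0.49. The sign of this list's median turned with TMM scaling, to -0.04. CHD remodellers and large co-regulators, the list with the longest genes, had 7 of 19 genes called higher, beside 13.0% of all genes and 15.7% of genes in the length range of the 10 regulators. Among the genes nearest in length to each of the 10, the share called higher ran from 10.5% to 41.5%. The list's median was 0.70, or 0.20 relative to genes of like length. Those called were CHD6 (1.38), ATRX (1.25), CHD7 (1.08), TRRAP (1.05), SRCAP (1.05), EP400 (1.04) and CHD9 (1.04). CHD9, with 123 and 244 reads, had 2.30 TPM in Huh7-NC and 2.06 in Huh7-si, so reads and TPM gave opposite signs.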

How the data were processed

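RNA-seq of 2 Huh7 libraries (1 per condition) was analysed. The submitters' processing notes name TopHat2 (version 2.0.12), Bowtie2 (version 2.0.6) and the build GRCh37; the counting tool, annotation and strandedness are not given in the sources used here. The authors deposited estimated counts and TPM values per gene, with a gene length. The authors' fold, log2 and p-value columns, which hold their own comparison, were not used. Columns of other samples left unused numbered 0. The 10 genes, the partner lists and the markers were chosen with earlier results of these data known.

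Estimated counts were rounded to whole numbers for tests and divided by library totals for CPM. Genes with at least 10 reads over both libraries were tested by a two-sided exact binomial test, and intervals are 95% Clopper-Pearson; pair intervals use a normal approximation. P-values and intervals reflect counting error between these libraries alone, and a count of 0 allows up to 3 reads (0.131 and 0.136 CPM). With 1 library per group, no spread between replicates could be estimated. Named partners are those called, the highest and lowest with at least 100 reads, and core subunits; a gene that this rule names is not reported here. Genes of like length were those nearest in the deposited length among genes with a symbol and at least 100 reads, the 10 genes left out.

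Of the identifiers, 94.8% were in GENCODE 29 (GRCh38), from which positions, overlaps and GC content were taken; these are not positions in the build of the notes. Scalings used edgeR 4.0.16 and DESeq2 1.42.0 in R 4.3.3; other steps used Python 3.11.15 with SciPy 1.17.1. The scripts were tested on simulated data. Alternatives covered scaling, read filters, the fold threshold, edgeR's exact test, TPM, and the choice of genes of like length.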

Additional observations from a re-analysis of the deposited data

How the results depend on the processing

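All 10 log2 fold changes stayed above 0 under each of 6 scalings: total reads, total reads without the 100 top genes, TPM, the upper quartile, TMM (edgeR), and median of ratios (DESeq2). TMM shifted every log2 fold change by -0.22, DESeq2's scaling by -0.21 and the upper quartile by -0.19, and the median of the 10 genes became 0.71, 0.73 and 0.75. EP300 then fell under the threshold (0.86, 0.88 and 0.90), leaving KMT2A and KMT2C called. Genes called higher made up 91.6% of called genes with total reads, 79.7% with TMM, 81.4% with DESeq2's scaling and 82.8% with the upper quartile, and genes called lower numbered 404, 374 and 352. The median of the COMPASS list turned to -0.13, -0.11 and -0.093, and that of the deacetylases to -0.043, -0.025 and -0.0047. For TPM the fold alone was counted, without a test. By it KMT2C fell under the threshold (0.94) and CREBBP passed it (1.08), and the difference of KMT2A and KMT2B was 0.68. The log2 fold change in TPM was above that in reads by 0.18 at the median, over genes with a symbol and at least 100 reads.

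Requiring 10 reads in each library left 1424 genes higher and 107 lower. A fold of 1.5 called 4218 of the 17921 genes tested higher and 698 lower, and 8 of the 10 higher. Genes in the length range of the 10 had a median log2 fold change of 0.54, and their share called at this fold was not counted. With a coefficient of variation of 0.4, edgeR's exact test called 562 higher, 53 lower and 0 of the 10. The median difference from genes of like length was 0.34 with neighbours held within 2-fold of the mean CPM; 50 or 500 neighbours gave 0.28 and 0.23, TPM gave 0.15, and genes with at least 10 reads gave 0.19. The GC match was added after seeing the data. No paired analysis was possible because each group has 1 library, and for the same reason leaving out a replicate was not run.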
